A study of Mus musculus with 2 samples.

Results

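The genes described here encode the subunits of RNA polymerases I, II and III. They were chosen by symbol, as every gene whose name begins with Polr1, Polr2 or Polr3 followed by a letter and whose summed level reached 1 CPM in either library. CPM is the count of unique molecular identifiers (UMIs, tags that mark single RNA molecules) per 1000000 UMIs of the library. All 28 matching symbols reached it, among 11637 genes at that level and 27998 genes in the matrices. They fall into 3 subunits of polymerase I, 2 shared by polymerases I and III, 8 of polymerase II, 5 shared by all 3 enzymes and 10 of polymerase III.

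Polymerase I makes the large ribosomal RNA precursor, polymerase II makes messenger RNA, and polymerase III makes transfer RNA, the smallest ribosomal RNA and other short RNAs. Each enzyme is built around a pair of large subunits that form the catalytic centre, an assembly platform, a stalk and a set of small subunits common to all of them. Blood stem cells are known for a low rate of protein synthesis, and polymerases I and III supply the ribosomal and transfer RNA that translation uses.

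Messenger RNA of single cells was sequenced from LSK cells (lineage-negative, Sca-1 and c-Kit positive), the bone marrow fraction that holds stem and progenitor cells, from 3-month-old mice. Each group was 1 library. The WT cells came from Trmt6 fl/fl mice and the cKO cells from Trmt6 fl/fl mice with Mx1-cre, per the labels, while the study describes its controls as Trmt6 +/+ with Mx1-Cre and as given pIpC too, so that the sources differ on the Trmt6 alleles and the Cre of the controls. The Trmt6 protein is part of an enzyme that methylates adenosine in transfer RNA, a product of polymerase III. Mx1-Cre is induced by interferon and acts in many cell types, so the deletion is not limited to blood stem cells. Genotype and library cannot be told apart, nor can the recombinase if the labels are right. No difference has a replicate check, no p-value is given, and all intervals are 95% intervals of counting error only.

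Filtering left 8145 cells of WT with 42768589 UMIs and 8472 of cKO with 88297692. The cKO cells were deeper, at a median of 10171.5 UMIs per cell against 4262. Trmt6 was at 63.8 CPM in WT against 50.4 CPM in cKO (log2 ratio -0.34, -0.41 to -0.27). Tags at the 3′ end outside a deleted stretch would not show the deletion. Where the deleted stretch lies was not examined, so the completeness of the deletion cannot be read from this level. Of the markers of the sort, Kit stood at 62.2 CPM in WT against 21.2 CPM in cKO, and Ly6a (Sca-1) at 33.5 and 143 CPM. The makeup of the libraries differed: 7 neutrophil markers summed to 5734 CPM in WT against 7.96 CPM in cKO, with none at 0, and 5 granulocyte-monocyte progenitor markers to 6524 and 741 CPM. In the other direction, 2 plasma cell markers summed to 6.85 and 413 CPM (1 of the 2 at 409 CPM in cKO) and 7 stem cell markers to 173 and 243 CPM. In a sum over all cells, fewer cells of a type and less RNA per cell cannot be told apart. The part of these cells in the subunit levels was not tested, and levels within marker gates are given further on.

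Over all kept cells, scaled by total UMIs, the 28 subunits summed to 2369 CPM in WT (2354 to 2383) and 2362 CPM in cKO (2352 to 2373), which agreed within counting error. That agreement depended on depth and scaling. In cells of like depth the sum was lower in cKO, at log2 ratios of -0.19 (-0.27 to -0.12), -0.09 (-0.11 to -0.07) and -0.034 (-0.052 to -0.016) in cells of 2000 to 4000, 4000 to 8000 and 8000 to 16000 UMIs. Under the 3 other scalings described further on it was higher, between 0.090 and 0.095. Within that sum, both subunits shared by polymerases I and III were higher in cKO, while those shared by all 3 enzymes were lower as a group but went both ways singly. Over all kept cells the largest differences of single genes were the lower levels of Polr2a, the catalytic subunit of polymerase II, and of Polr3gl, a subunit of polymerase III. In cells of like depth Polr3gl was short of a log2 ratio of -0.5, while Polr2l, shared by all 3 enzymes, passed it together with Polr2a. The log2 ratio of cKO over WT had a median of 0.08 over the 28 subunits and of -0.09 over the 11637 genes. It lay above 0 for 17 subunits (60.7%) and for 42.0% of all genes. Past a log2 ratio of 0.5 either way, which is 1.41-fold, 0 of 28 subunits were higher in cKO, beside 11.2% of all genes, and 2 of 28 (7.14%) were lower, beside 20.8% of all genes. Over all kept cells the share of subunits past that fold was thus under the share of all genes in both directions. All genes here reach down to 1 CPM, where counting error is wider, and no background of like level was used. The counts varied with the setting. In cells of 2000 to 4000 UMIs 2 of 28 were higher, beside 21.7% of all genes, and 6 were lower, beside 19.1%.

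**Figure D1:**
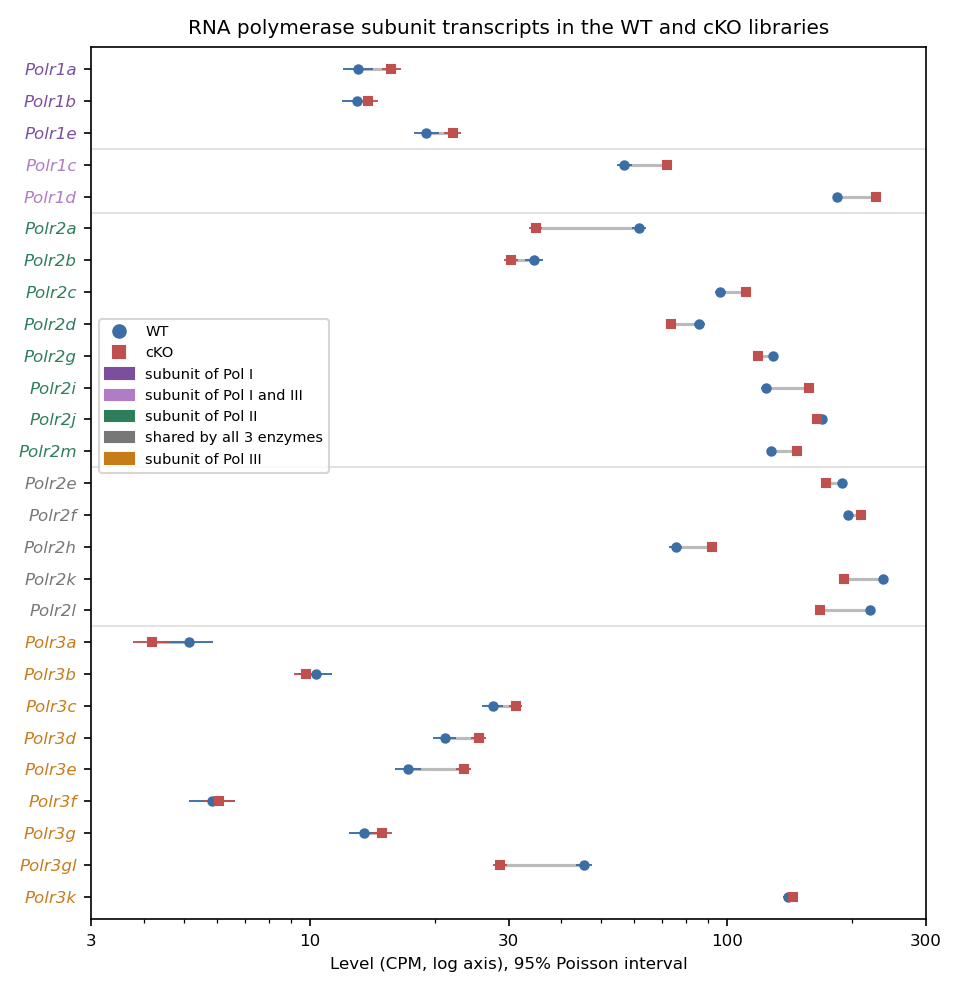
Levels of the subunits in CPM (log axis) in the WT library (circles) and the cKO library (squares), with 95% Poisson intervals; gene names are coloured by the enzyme they belong to. Polr2a and Polr3gl have the widest gaps with cKO at the lower value, and Polr1c and Polr1d lie to the right in cKO.

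Each level counts the 3′ ends of transcripts, so that it does not scale with transcript length, but genes also differ in how well they are captured. On this scale the subunits spanned from 4.18 CPM for Polr3a in cKO to 237 CPM for Polr2k in WT. The 2 largest subunits of polymerases I and III stood between 4.18 and 15.7 CPM. Of the subunits shared by all 3 enzymes, Polr2h stood at 75.4 and 92.0 CPM and the other 4 between 167 and 237 CPM, a range that Polr1d also reached.

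By enzyme, the 3 polymerase I subunits summed to 45.1 CPM in WT against 51.5 CPM in cKO (log2 ratio 0.19, 0.11 to 0.27). At matched depth the interval of this sum included 0, with log2 ratios of -0.33, 0.13 and -0.0045 from the shallowest to the deepest range. The pair shared by polymerases I and III summed to 240 and 300 CPM, a log2 ratio of 0.32 (0.29 to 0.35). The 8 polymerase II subunits summed to 829 and 837 CPM, a log2 ratio of 0.01 with an interval that included 0. The polymerase III subunits summed to 337 and 342 CPM, a log2 ratio of 0.02 (-0.01 to 0.05). The intervals of both sums included 0 here but not under every setting. In cells of 4000 to 8000 UMIs polymerase II stood at -0.063 (-0.099 to -0.027) and polymerase III at -0.094 (-0.15 to -0.037), and with TMM factors at 0.11 (0.090 to 0.13) and 0.11 (0.083 to 0.14). The 5 subunits shared by all 3 enzymes summed to 917 and 832 CPM, a log2 ratio of -0.14 (-0.16 to -0.12), where the median gene stood at -0.09. In cells of 4000 to 8000 UMIs this class stood at -0.26 and the median gene at 0.02, in cells of 8000 to 16000 UMIs at -0.20 and 0.04, and with TMM factors at -0.046 and 0.01. As a share of all subunit UMIs, the polymerase I and III pair took 10.1% in WT and 12.7% in cKO. The 5 shared subunits took 38.7% and 35.2%.

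The large subunits form the cleft in which RNA is made. Polr2a, which carries the long C-terminal tail that is phosphorylated as polymerase II moves along a gene, was the most different of all subunits over all kept cells: 61.5 CPM in WT (59.2 to 63.9) and 34.8 CPM in cKO (33.6 to 36.0). The log2 ratio was -0.82 (-0.90 to -0.75), a level in cKO 0.565 of that in WT. Its partner Polr2b, the second large subunit, stood at 34.5 CPM in WT against 30.4 CPM in cKO (log2 ratio -0.18, -0.27 to -0.09). Polr2a thus made up 64.1% of the UMIs of the pair in WT (62.6% to 65.6%) and 53.3% in cKO (52.0% to 54.6%), although the enzyme holds 1 copy of each. This share varied with the depth range. In cells of 2000 to 4000 UMIs it was 69.8% in WT and 70.5% in cKO (54.8% to 83.2%, from 31 UMIs of Polr2a and 13 of Polr2b). It was 65.4% and 52.3% in those of 4000 to 8000 UMIs. In those of 8000 to 16000 UMIs it was 57.5% (54.6% to 60.4%) and 53.0% (51.4% to 54.6%), with intervals that just meet. The large subunits of polymerase I did not share this difference: Polr1a stood at 13.1 CPM in WT against 15.7 CPM in cKO (log2 ratio 0.26, 0.12 to 0.41) and Polr1b at 13.0 and 13.8 CPM (0.09, -0.06 to 0.24). Those of polymerase III were sparse. Polr3a stood at 5.14 CPM in WT against 4.18 CPM in cKO (-0.30, -0.54 to -0.05), and Polr3b at 10.3 and 9.81 CPM (-0.08, -0.24 to 0.09).

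The Polr2a gene lies on the minus strand of chromosome 11 (chr11:69733997-69758637, GRCm38). The RefSeq sequence before its start is shown because no other subunit differed as much over all kept cells; the stretch is chr11:69758638-69758883 on the minus strand of GRCm38.p6, ends at the last base before the annotated exons, and has a TATA box (TATAAA) in capitals.
Polr2a: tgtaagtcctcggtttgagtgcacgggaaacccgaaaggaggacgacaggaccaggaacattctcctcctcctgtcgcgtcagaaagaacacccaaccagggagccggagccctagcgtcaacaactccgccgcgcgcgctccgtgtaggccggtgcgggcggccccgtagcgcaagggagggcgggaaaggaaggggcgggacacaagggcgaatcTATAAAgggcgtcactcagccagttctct
Of the 250 bases before the start in 32851 mouse promoters, 12.4% hold TATAAA on either strand. Among the 22 subunit genes in the RefSeq table, Polr2a and Polr2c hold it, and Polr2c stood at 96.4 CPM in WT against 111 CPM in cKO. A match of letters is not a measured binding site.

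The platform on which an RNA polymerase assembles is a pair of proteins, Polr1c with Polr1d in polymerases I and III and Polr2c with Polr2j in polymerase II. Polr1c stood at 56.8 CPM in WT (54.5 to 59.1) and 71.8 CPM in cKO (70.1 to 73.6), a log2 ratio of 0.34 (0.27 to 0.41). Polr1d stood at 184 CPM (180 to 188) and 228 CPM (225 to 231), a log2 ratio of 0.31 (0.28 to 0.35). Both members of this pair were therefore higher in cKO by a like amount, without reaching the 0.5 fold. Polr2c had a log2 ratio of 0.21 (0.15 to 0.26), while Polr2j stood at 169 CPM in WT against 165 CPM in cKO (log2 ratio -0.04). Polr1d made up 52.0% of the UMIs of Polr1d and Polr2j in WT (51.2% to 52.8%) and 58.1% in cKO (57.6% to 58.6%).

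The stalk leans out from the enzyme near the exit of the RNA. In polymerase II it is made of Polr2d and Polr2g, and both were lower in cKO. Polr2d stood at 86.0 CPM in WT against 73.4 CPM in cKO (log2 ratio -0.23, -0.29 to -0.17), and Polr2g at 129 and 118 CPM (-0.13, -0.17 to -0.08). The stalk of polymerase III holds the product of Crcp, whose symbol falls outside the rule, at 35.7 and 48.6 CPM (0.44, 0.36 to 0.53). Among the small zinc-binding subunits that help to cut back stalled RNA, Polr2i of polymerase II stood at 124 CPM in WT against 157 CPM in cKO (0.34, 0.29 to 0.39). Its polymerase III counterpart Polr3k stood at 140 and 144 CPM (0.04). Polr2m, a protein that associates with polymerase II and is not part of its core, stood at 128 and 147 CPM (0.20, 0.16 to 0.25). The polymerase II genes thus went both ways, with Polr2i, Polr2c and Polr2m higher and Polr2a, Polr2d, Polr2b and Polr2g lower. Under 10 other settings Polr2b (from -0.69 to 0.02) and Polr2c (from -0.18 to 0.31) took both signs, and the other 5 kept theirs.

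The 5 subunits that all 3 enzymes share also went both ways. Polr2l stood at 220 CPM in WT (216 to 225) and 167 CPM in cKO (165 to 170), a log2 ratio of -0.40 (-0.43 to -0.36). Polr2k stood at 237 and 191 CPM (-0.31, -0.35 to -0.28), and Polr2e at 189 and 173 CPM (-0.13, -0.17 to -0.09). Polr2h, by contrast, stood at 75.4 CPM in WT against 92.0 CPM in cKO (0.29, 0.23 to 0.35), and Polr2f at 196 and 210 CPM (0.10, 0.06 to 0.14). The lower sum of this group came from Polr2l, Polr2k and Polr2e, which kept their sign under the other settings, while Polr2f (from -0.10 to 0.20) and Polr2h (from -0.17 to 0.39) took both. The counts of Polr2k, Polr2h and Polr1b are uncertain, since within the last 400 bases of their transcripts they share stretches of at least 100 bases at 95% identity or more with other transcripts: 1 pseudogene of Polr2k is 100% identical over 163 bases, and Polr1b holds a repeat found in many genes.

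Polr1e, in a subcomplex particular to polymerase I that helps it to start and elongate, stood at 19.0 CPM in WT against 22.0 CPM in cKO (log2 ratio 0.21, 0.09 to 0.33). Polr3d and Polr3e form the corresponding subcomplex of polymerase III. Over all kept cells Polr3e had the highest log2 ratio of the 28 subunits, with 17.2 CPM in WT (16.0 to 18.5) and 23.4 CPM in cKO (22.4 to 24.4) and a log2 ratio of 0.44 (0.32 to 0.56). Polr3d stood at 21.1 and 25.4 CPM (0.27, 0.16 to 0.39). Scaling the libraries by TMM factors, by median-of-ratios size factors or by totals that exclude mitochondrial and ribosomal protein genes raised the median of all genes by up to 0.10, to 0.01, and 51.1% of all genes or fewer then lay above 0. Under each of these Polr3e was 1 subunit higher past the fold, beside the 2 that were lower. Of all genes, 14.6%, 14.8% and 14.7% were then higher past the fold and 16.5%, 16.4% and 16.5% lower, in the order of the scalings.

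A further subcomplex, which joins polymerase III to its initiation factor, holds Polr3c, Polr3f and either Polr3g or Polr3gl. The last pair are paralogs that replace each other, and Polr3g is known as the form of embryonic and dividing cells. Polr3gl stood at 45.4 CPM in WT (43.4 to 47.5) and 28.5 CPM in cKO (27.4 to 29.7), a log2 ratio of -0.67 (-0.76 to -0.58). Polr3g stood at 13.5 CPM (12.4 to 14.6) and 14.9 CPM (14.1 to 15.7), a log2 ratio of 0.14. Polr3gl was the more abundant form in both libraries, and Polr3g made up 22.9% of the UMIs of the pair in WT (21.3% to 24.6%) against 34.3% in cKO (32.8% to 35.8%). At matched depth these intervals were apart only in cells of 8000 to 16000 UMIs, and in the shallowest range the share was lower in cKO, as given further on. Polr3c stood at 27.5 and 31.2 CPM (0.18, 0.08 to 0.28), and Polr3f at 5.85 and 6.07 CPM (0.05, -0.16 to 0.28). An exon of Polr3gl overlaps Gm16253 on the opposite strand, and the strand setting of the counting is not given in the sources used here.

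The RefSeq sequences of the 250 bases before the starts of these paralogs are shown because they differ in the motifs searched. They are chr3:96594182-96594431 for Polr3gl and chr13:81711014-81711263 for Polr3g, both on the minus strand of GRCm38.p6, with an E-box (CACGTG) and CCAAT boxes (CCAAT, here on either strand) in capitals.
Polr3gl: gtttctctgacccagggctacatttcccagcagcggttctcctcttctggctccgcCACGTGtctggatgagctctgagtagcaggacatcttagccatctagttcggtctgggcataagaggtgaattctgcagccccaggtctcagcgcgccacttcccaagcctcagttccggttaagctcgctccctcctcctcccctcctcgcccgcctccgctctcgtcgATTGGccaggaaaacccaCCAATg
Polr3g: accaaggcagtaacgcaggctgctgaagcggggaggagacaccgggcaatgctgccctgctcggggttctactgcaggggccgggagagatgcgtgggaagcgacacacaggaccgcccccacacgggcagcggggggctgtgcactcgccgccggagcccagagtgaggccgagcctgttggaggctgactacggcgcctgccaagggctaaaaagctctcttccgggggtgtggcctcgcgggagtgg
The Polr3gl stretch holds 1 E-box, which 6.02% of all promoters and 2 of the 22 subunit genes hold (Polr3c is the other), and 2 CCAAT boxes, a motif in 33.8% of promoters. The Polr3g stretch holds none of the 5 motifs searched, which included TGACGTCA (1.55% of promoters, no subunit gene) and TGATGNAA (3.45%, Polr2m).

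**Figure D2:**
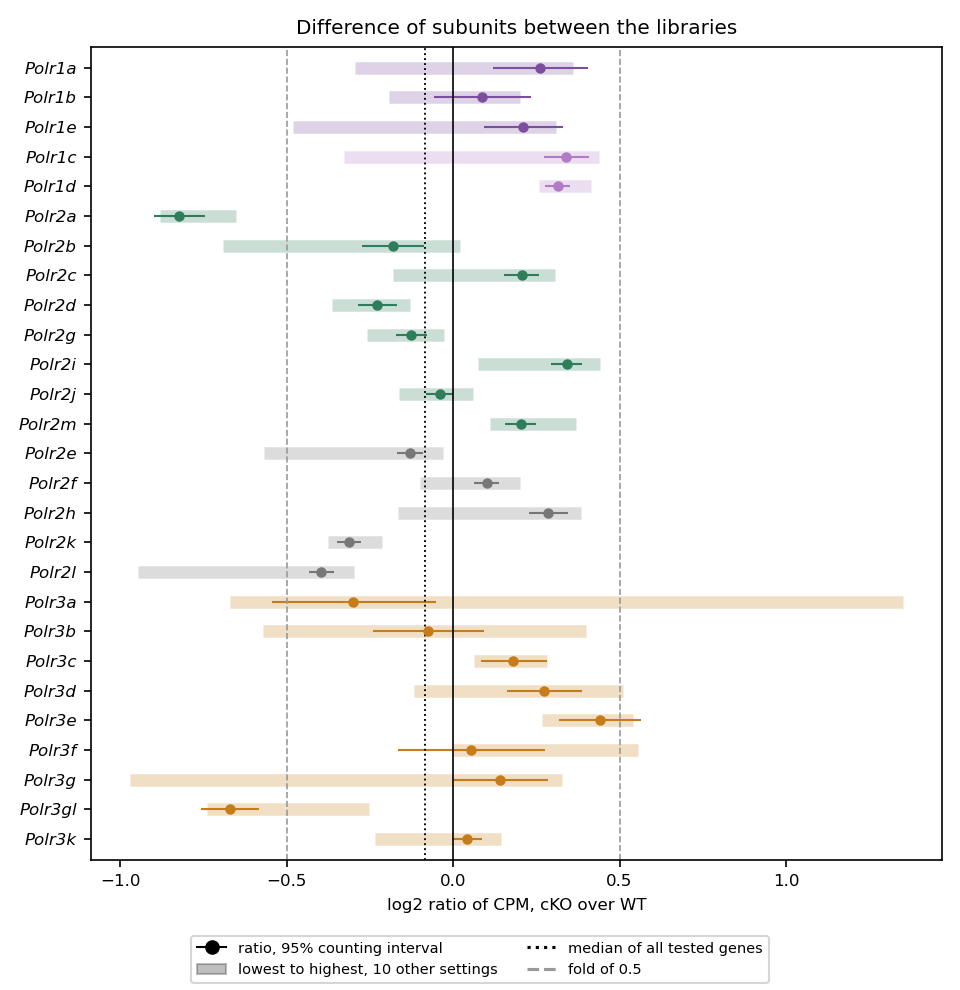
Log2 ratio of the subunits, cKO over WT, each with its 95% counting interval (point and line) and the lowest and highest value over 10 other ways of scaling or choosing cells (pale bar); dotted, the median of all tested genes, and dashed, the 0.5 fold. Polr2a stays beyond the fold under all of them, Polr3gl does not, and the bar of Polr2l extends past it.

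Cell cycle phase was called on cells thinned to 2000 UMIs, and all UMIs of the called cells were then summed. The 3 phases held 3488, 1889 and 2579 WT cells and 3267, 2561 and 2541 cKO cells in G1, S and G2/M. In G1 cells Polr2a stood at 65.7 CPM in WT against 30.5 CPM in cKO (log2 ratio -1.11, -1.25 to -0.97). In S it was -0.66 (-0.81 to -0.51) and in G2/M -0.68 (-0.79 to -0.56). Polr2a was thus lower in cKO in each phase, and the log2 ratio was farthest from 0 in G1. For Polr3gl the log2 ratios were -0.91 in G1, -0.60 in S and -0.50 in G2/M. The depth gap, as a ratio, was also widest in G1, at a mean of 3461 UMIs per cell in WT against 8531 in cKO, beside 6113 against 11172 in S and 7307 against 12459 in G2/M, and the median of all genes was -0.14 in G1 against -0.05 in S and -0.05 in G2/M. The part of depth in the order of the phases was not tested. Polr1d, with 0.31, 0.29 and 0.32, hardly varied between phases. In G1, 0 of 28 subunits were higher past the fold, beside 11.7% of all genes, and 2 were lower, Polr2a and Polr3gl, beside 26.7% of all genes. In S 0 were higher, beside 11.8%, and 4 were lower, these 2 with Polr2l (-0.54) and Polr3a (-0.67), beside 18.7%. In G2/M 0 were higher, beside 14.3%, and Polr2a and Polr3gl were lower, beside 19.1%.

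Cells were also gathered by marker detection in 4 gates, which are ranges of marker detection and not cell types. The stem gate (2 or more of 7 stem cell markers and no other gate) held 423 WT and 898 cKO cells, and 1831 WT and 2285 cKO cells were 1 marker short of it. In it Polr2a stood at 67.7 CPM in WT against 34.7 CPM in cKO (log2 ratio -0.97, -1.31 to -0.61), and Polr3gl at 62.8 and 36.1 CPM (-0.80, -1.15 to -0.43). Polr1c stood at 36.0 and 71.6 CPM (0.98, 0.58 to 1.44), from 51 UMIs in WT. These were the 3 subunits past the fold there: 1 of 28 higher, beside 13.4% of all genes, and 2 lower, beside 29.7% of all genes. In the lymphoid, granulocyte-monocyte and megakaryocyte gates the log2 ratios of Polr2a were -0.57, -0.61 and -1.12, with 178, 173 and 53 cKO cells. In that order 2, 2 and 6 subunits were higher past the fold, beside 17.3%, 14.3% and 23.9% of all genes, and 1, 3 and 3 were lower, beside 27.9%, 21.5% and 27.1%. Polr2a was thus lower in cKO in each of the 4 gates. Depth still differed within gates, at a mean of 3352 UMIs per cell in WT against 8226 in cKO in the stem gate. In the granulocyte-monocyte gate the means were 7227 and 14912. The part of depth in the gates was not tested. By the sign of the log2 ratio alone, over the 3 phases and 4 gates, 6 subunits were lower in cKO throughout (Polr2a, Polr2e, Polr2g, Polr2k, Polr2l and Polr3gl), 5 were higher throughout (Polr1c, Polr1d, Polr1e, Polr2i and Polr3c), and 17 had both signs. No such count was made over all genes. The intervals lay below 0 in all 7 only for Polr2a, in 6 for Polr2k and Polr2l, in 5 for Polr3gl, in 4 for Polr2g and in 3 for Polr2e. They lay above 0 in 6 for Polr1d, in 5 for Polr1c and Polr2i, in 2 for Polr3c and in 0 for Polr1e. Phases and gates share cells.

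**Figure D3:**
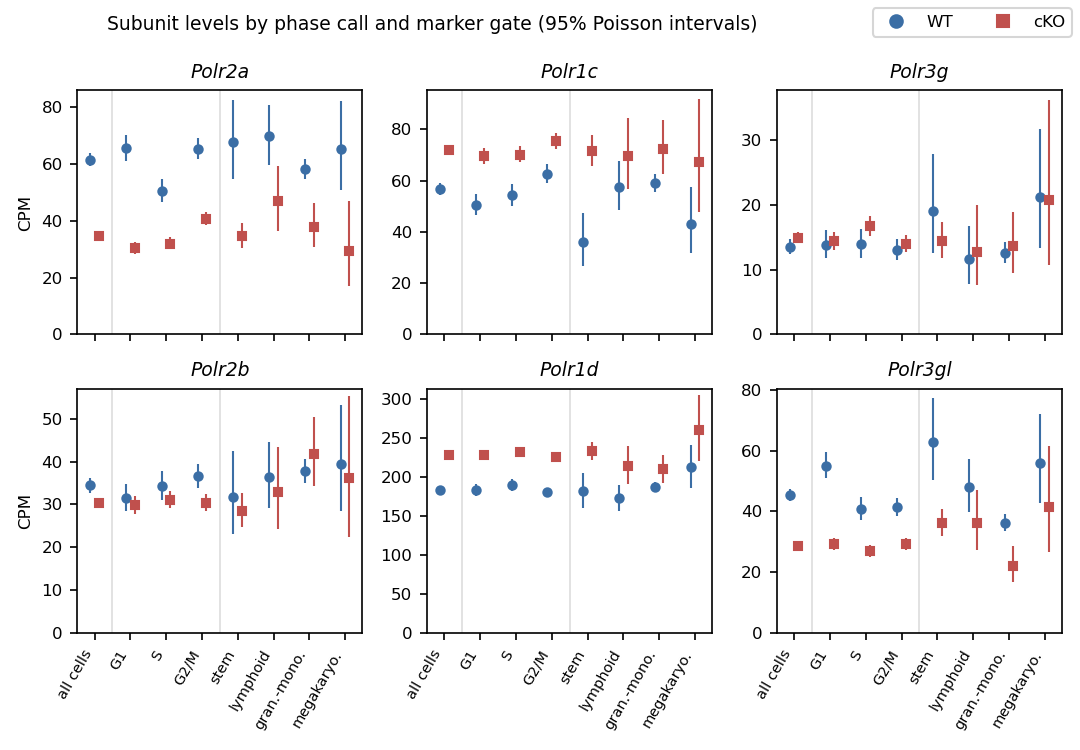
Levels of 6 subunits in CPM over all kept cells, by phase call and by marker gate, in WT (circles) and cKO (squares) with 95% Poisson intervals; the vertical axes start at 0. Polr2a is lower in cKO in each set and Polr2b overlaps in most, Polr1c and Polr1d are higher in cKO in each, and Polr3gl is lower while Polr3g overlaps in most.

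Because the cKO cells were deeper, the levels were also compared in cells of like depth. Depth also went with phase and gate. WT cells had a mean of 3461 UMIs in G1, 7307 in G2/M and 7227 in the granulocyte-monocyte gate. Cells of like depth can therefore differ in type and phase between the libraries, and the makeup of each range was not tested. In cells of 4000 to 8000 UMIs (3168 WT and 2115 cKO cells) Polr2a stood at 61.2 CPM in WT against 36.0 CPM in cKO (log2 ratio -0.76, -0.92 to -0.61), and in cells of 8000 to 16000 UMIs (1146 and 5310 cells) at 54.0 and 34.4 CPM (-0.65, -0.78 to -0.52). In cells of 2000 to 4000 UMIs (3534 and 212 cells) it stood at 73.4 and 45.2 CPM (-0.68, -1.27 to -0.18). Polr2a was thus past the fold at each depth, and its level went down with depth in WT. In cKO the intervals overlapped, at 30.7 to 64.2, 32.9 to 39.3 and 32.9 to 35.9 CPM from the shallowest to the deepest range. The level of Polr3gl also went down with depth, from 57.7 to 47.0 to 34.8 CPM in WT cells of 2000 to 4000, 4000 to 8000 and 8000 to 16000 UMIs, and from 42.3 to 39.4 to 27.2 CPM in cKO cells. At matched depth its log2 ratio was -0.42 (-1.04 to 0.09), -0.25 (-0.41 to -0.10) and -0.36 (-0.51 to -0.20), lower in cKO each time and short of the 0.5 fold. Polr3g made up 23.4% (WT) and 26.9% (cKO) of both paralogs in cells of 4000 to 8000 UMIs, with overlapping intervals, and 26.0% and 36.2% in cells of 8000 to 16000 UMIs, with intervals apart. In cells of 2000 to 4000 UMIs the order was the other way, 18.2% (15.5% to 21.1%) and 12.1% (3.40% to 28.2%, from 33 UMIs in cKO), with overlapping intervals.

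The pattern of Polr2l with depth was the opposite. Its level went up with depth, from 173 to 213 to 258 CPM in WT and from 88.9 to 149 to 169 CPM in cKO, so that the log2 ratio at matched depth was -0.95 (-1.35 to -0.59), -0.51 (-0.59 to -0.43) and -0.61 (-0.67 to -0.55), past the fold in each. Polr1d was higher in cKO at each depth, by a log2 ratio of 0.39, 0.34 and 0.26. Its partner Polr1c was higher in the 2 deeper ranges (0.31 and 0.24) and at -0.33 (-0.96 to 0.20) in the shallowest, which rested on 212 cKO cells and 28 UMIs of Polr1c. The sum of the polymerase I subunits, in contrast, had a log2 ratio of 0.13 (-0.03 to 0.29) in cells of 4000 to 8000 UMIs and stood at 52.8 CPM in WT against 52.6 CPM in cKO in those of 8000 to 16000 UMIs. In the middle range 0 of 28 subunits were higher past the fold, beside 15.6% of all genes, and 2 were lower, Polr2a and Polr2l, beside 15.9%. In cells of 8000 to 16000 UMIs 1 was higher, Polr3d at 0.51, beside 20.3% of all genes, and 3 were lower, Polr2a, Polr2l and Polr3a at -0.67, beside 16% of all genes. In cells of 2000 to 4000 UMIs, with few cKO cells, 2 were higher, beside 21.7% of all genes, and 6 lower, beside 19.1%. Over all kept cells a fold of 0.25 was passed by 7 subunits that were higher, beside 22.2% of all genes, and by 5 that were lower, beside 36.3%.

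**Figure D4:**
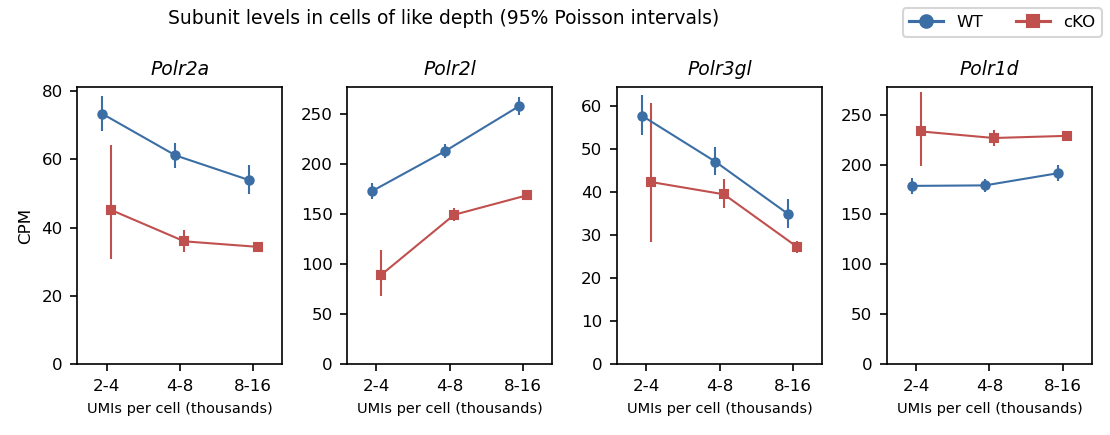
Levels of Polr2a, Polr2l, Polr3gl and Polr1d in CPM in cells grouped by UMIs per cell, in WT (circles) and cKO (squares) with 95% Poisson intervals; the vertical axes start at 0. Polr2a and Polr2l are lower in cKO at each depth, the gap of Polr3gl is narrow at matched depth, and Polr1d is higher in cKO.

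The polymerases work with factors that were listed by role, and each factor reached 1 CPM in a library. Their values are over all kept cells, and the factors were not compared at matched depth. The 4 subunits under another name (Twistnb, Cd3eap, Znrd1 and Crcp) had a median log2 ratio of 0.16 and none passed the fold. Of 7 polymerase I factors, 2 were lower past the fold: Taf1a, of the promoter selectivity factor, at 8.25 CPM in WT against 5.15 CPM in cKO (-0.68, -0.88 to -0.47), and the termination factor Ttf1, at 28.3 and 17.4 CPM (-0.70, -0.81 to -0.59). Rrn3, which joins polymerase I to its promoter, had a log2 ratio of 0.29. Of 17 polymerase III factors none passed the fold in either direction, and their median was 0.03. Gtf3a, which binds the 5S ribosomal RNA gene, had the highest value (0.40), Snapc5, of the complex that binds small nuclear RNA promoters, the lowest (-0.40, -0.46 to -0.34), and Maf1, the repressor of polymerase III, stood at -0.08.

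Of 29 polymerase II factors, 2 were higher and 2 lower past the fold, with a median of 0.05. Gtf2h3 and Gtf2h4, both of the general factor TFIIH, had 24.1 and 21.5 CPM in WT against 37.8 and 35.5 CPM in cKO (0.65 and 0.73). Gtf2a1, of the general factor TFIIA, stood at 29.3 and 15.7 CPM (-0.90, -1.01 to -0.78), and the elongation factor Supt4a at 193 and 131 CPM (-0.56, -0.60 to -0.51). None of 12 assembly factors (median 0.14) or of 3 genes of the mitochondrial transcription machinery (median 0.17) passed the fold. Over these lists the shares past the fold were read against the same 11.2% higher and 20.8% lower of all genes.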

How the data were processed

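The 2 libraries hold sorted LSK cells, 1 of WT and 1 of cKO as the labels' genotype gives them. The authors deposited UMI counts per gene and barcode, made with Cell Ranger 6.0.0 on GRCm38 per the submitters' notes. The labels name the 3′ v2 kit and the methods of the study v3. The study's limits were applied: over 200 genes, under 4000 (WT) or 4500 (cKO) genes, mitochondrial UMIs under 10% or 5%, and hemoglobin UMIs under 5%. The top doublet scores (0.8% per 1000 barcodes) removed 618 and 679 cells. The libraries share 24 barcodes, 0.271% of WT. UMIs were summed over cells and scaled to CPM, and log2 ratios used 0.5 prior counts. Intervals were exact (scipy 1.17.1): Poisson, conditional binomial and Clopper-Pearson. Phases followed the Seurat 5.3.0 gene lists, and TMM came from edgeR 4.0.16. Gates needed 2 markers (3 for granulocyte-monocyte) after cells were thinned to 2000 UMIs (189 WT and 103 cKO cells had fewer and were not used there). Coordinates are GENCODE M21 and promoters RefSeq (22 of 28 subunits matched).

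Every subunit that met the rule is named, with fixed lists of factors, except 1 that enters the sums and counts and is not reported here. The members and lists were chosen with earlier results of these data known. Alternatives were other scalings, other cells, cells of fixed depth, a WT phase mix, other class borders, a 5 CPM minimum and a 0.25 fold. The depth ranges of 2000 to 4000 and 8000 to 16000 UMIs and the pairs other than Polr3g and Polr3gl were added after seeing the data. Each group is 1 library, so no test was run.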

Additional observations from a re-analysis of the deposited data

How the results depend on the processing

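No paired analysis was possible because each group is 1 library. Among the log2 ratios of single subunits, 155 alternative values moved by less than the counting interval, 102 moved by more and 13, of subunits whose interval excluded 0, took the opposite sign. Over 10 alternatives 13 subunits kept 1 sign and 14 had both. Scaling by TMM factors, median-of-ratios size factors or totals that exclude mitochondrial and ribosomal protein genes gave, in that order, 0.29, 0.29 and 0.29 for the polymerase I class, 0.41, 0.42 and 0.42 for polymerases I and III, 0.11, 0.11 and 0.11 for polymerase II, -0.046, -0.041 and -0.044 for the subunits of all 3 enzymes, and 0.11, 0.12 and 0.11 for polymerase III. Under each, 1 subunit was higher past the fold, beside 14.6%, 14.8% and 14.7% of all genes.

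In cells of 4000 to 8000 UMIs the polymerase II class stood at -0.063, all 3 enzymes at -0.26 and polymerase III at -0.094. In cells of 8000 to 16000 UMIs polymerase I was at -0.0045, polymerases I and III at 0.25, polymerase II at 0.042 and all 3 enzymes at -0.20, with 1 subunit higher, beside 20.3% of all genes. In cells of 2000 to 4000 UMIs, of which the cKO library had 212, these classes were at -0.33, 0.25, -0.17 and -0.43, and polymerase III at -0.026. There 2 subunits were higher, beside 21.7% of all genes, and 6 lower, beside 19.1%. Counting Polr1c and Polr1d in both classes gave 0.30 for polymerase I and 0.15 for polymerase III, and leaving out Polr2m gave -0.023 for polymerase II. The intervals of the polymerase II and III sums over all kept cells included 0, and those under the 3 scalings and in cells of 4000 to 8000 UMIs did not. A fold of 0.25 gave 7 higher, beside 22.2% of all genes, and 5 lower, beside 36.3%.

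Those 13 values were, in cells of 2000 to 4000 UMIs, Polr1a (-0.30), Polr1e (-0.48), Polr1c (-0.33), Polr2c (-0.18), Polr2f (-0.10), Polr2h (-0.17), Polr3a (1.35), Polr3d (-0.12) and Polr3g (-0.97). In cells of 4000 to 8000 UMIs they were Polr2b (0.021), Polr2f (-0.10) and Polr3a (0.025), and in cells of 8000 to 16000 UMIs Polr2f (-0.016). The cause was not tested. Exons of 10 subunit genes overlap a gene on the other strand.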
